A study of Mus musculus with 4 samples.

Results

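The cytosolic ribosomal protein genes were followed in cultured mouse epidermal keratinocytes on 4 two-colour arrays. Members were all gene probes whose name on the array is Rpl or Rps followed by a number, with an optional letter (x and l included), or Rplp0, Rplp1, Rplp2 or Rpsa. The Rps6k kinases were left out. This gave 78 genes of 27962 gene names on the array, with 130 probes of 41174 and 139 spots. All 130 probes passed the filter on dim probes, as did 35584 probes in all. The genotype fit took 129 of them, because a Rps4x probe was measured on only 2 arrays, and the passage fit took 126. A total of 128 were well above background in both channels on every array. The exceptions were a Rps19 probe and a Rps2 probe with low signal.

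The cells were primary epidermal keratinocytes from mice with the age label P3. By the pair numbers, taken to mark the same animals at both passages, there were 2 mice of each genotype. Every mouse carried K5-Cre, a recombinase expressed from the keratin 5 promoter of basal keratinocytes. Casp-8F/–K5-Cre mice (F/-) paired a floxed Casp8 allele with a null one, and Casp-8F/+K5-Cre mice (F/+) paired it with a wild-type one. The Casp8 product, caspase-8, is the protease that starts death receptor signalling. RNA was taken at passage 1 (early) and passage 3 (late), 8 samples in all, and on each array F/- RNA carried Cy3 and the paired F/+ RNA carried Cy5. No array had the dyes exchanged, so genotype and dye cannot be told apart in a ratio, while an equal dye effect cancels between passages. Late arrays carry a passage 1 entry in the source name of the Cy5 RNA but passage 3 in the title, the description and the passage entry, which were followed. Cultures were of whole epidermis, so fewer cells of a type and less RNA per cell cannot be told apart.

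The 4 arrays shared 1 slide and 1 scan. Per channel, 75.8% to 87.9% of gene spots stood well above background, with 0 saturated. All 13 keratinocyte markers were above background in both channels on every array, as were all 7 fibroblast and all 7 macrophage and leukocyte markers, 4 of 5 melanocyte and 2 of 3 endothelial markers. Of the 13 keratinocyte markers, 5 were called lower in F/- over both passages and 0 higher, where 2.99% and 5.85% of all probes were. Their median log2 ratio was -0.13. The fibroblast markers had a median of 0.41 with 0 called, and the leukocyte markers 0.57 with 1 called higher and 0 lower. Medians were -0.07 for the melanocyte and 0.01 for the endothelial markers, with 0 called. The summed processed signal of the keratinocyte markers ran from 808366 to 1.41e+06 in F/- and from 909681 to 1.50e+06 in F/+. The summed processed signal of the leukocyte markers was 60707 and 28190 in F/- and 38029 and 29760 in F/+ at the early passage. At the late passage it was 27529 and 12506 in F/- and 6693 and 4537 in F/+. For the fibroblast markers it was 2317 and 1782 in F/- and 1558 and 1914 in F/+ early, and 9689 and 4586 in F/- and 2385 and 3187 in F/+ late. The part of these cells in the results below was not tested. The Casp8 probe had log2 ratios of 0.42, 0.18, 0.47 and -0.20. Neither the deleted exons nor the probe's place in the gene is known from the labels, so it does not check them.

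A cytosolic ribosome joins a large and a small subunit, each built from ribosomal RNA and many different proteins, most of them encoded by a single gene. Rpl genes encode proteins of the large subunit and Rps genes those of the small subunit. The acidic proteins of the stalk, Rplp0, Rplp1 and Rplp2, recruit the translation factors. The messages are among the most abundant in growing cells, and many begin with a C followed by a run of pyrimidines, the 5′ TOP motif, through which mTOR and Larp1 control their translation.

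The starts of the 5 genes with the lowest called ratios, and of Rpl4, which had 1 of the 2 probes called higher, are shown because this motif is the shared sequence feature for which the family is known. Sequences are RefSeq's (GRCm38.p6), 30 bases from 10 before the annotated start, 5′ to 3′ on the strand of the gene. Capitals mark a C followed by at least 4 pyrimidines that begins within 5 bases of the start. The list runs from the lowest ratio to the highest.
Rpl37a: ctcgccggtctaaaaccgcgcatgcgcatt
Rpl38: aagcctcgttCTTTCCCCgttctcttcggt
Rps7: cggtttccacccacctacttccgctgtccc
Rps18: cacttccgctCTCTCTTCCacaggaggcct
Rps13: caaacgtcggtgagtggcgtcacttcctgt
Rpl4: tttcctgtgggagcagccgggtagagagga
They lie at chr1:72711250-72711279 (Rpl37a, plus strand), chr11:114668570-114668599 (Rpl38, plus), chr12:28635934-28635963 (Rps7, minus), chr17:33955646-33955675 (Rps18, minus), chr7:116334171-116334200 (Rps13, minus) and chr9:64173377-64173406 (Rpl4, plus). Rpl38 and Rps18 have a run marked from the annotated base, and the other 4 windows have none within 5 bases of it. In Rps18 the unbroken pyrimidines begin shortly before that base, and the match nearest the start is marked. The windows of Rps7 and Rps13 hold such a run further downstream. Of the member genes, 58 had a promoter in the RefSeq table. A run of this kind began exactly at an annotated start in 13 of them (22.4%), against 2.67% of 17492 protein-coding genes. Within 5 bases of a start it was present in 27 (46.6%), against 21.5%. On the other strand the same search gave 9 member genes (15.5%), against 25.1%. Taking the brightest probe of each gene, the 27 genes with a run had a median log2 genotype ratio of -0.42 and 11 of them were called lower. The 31 without one had a median of -0.48, with 17 called lower. A match describes letters only, and annotated starts need not be the start in these cells.

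Over both passages, most ribosomal protein probes read lower in F/- than in F/+. The log2 ratio of F/- over F/+, averaged over passages, was negative for 116 of 129 members, and its median was -0.39, against -0.01 for all 35563 probes tested. Limma's moderated test with Benjamini-Hochberg adjustment over all probes, at an adjusted p under 0.05, called 42 members lower, from 39 genes, where 2.99% of all probes were called lower. It called 2 higher, where 5.85% of all probes were. Of the 42, 5 lay past a 2-fold difference. The member median on single arrays was -0.35 and -0.26 at the early passage and -0.50 and -0.35 at the late passage, in the order of pair 1 and pair 2. Of the 126 members measured on all 4 arrays, 80 were negative on every array and 4, probes of Rpl4, Rplp0, Rps15 and Rps6, were positive on every array.

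These calls rest on few arrays. With either early array, or the late pair 1 array, left out, limma called 0 members and 0 probes of the table, with 59, 64 and 81 members at an unadjusted p under 0.05. With the late pair 2 array left out it called 59 members lower and 3 higher, with 11.2% of all probes called. The member median lay between -0.43 and -0.31 with an array left out. The 2 arrays of each pair, taken to come from the same animals, were also averaged first. Limma then called 0 members and 0 probes of the table, with 89 members at an unadjusted p under 0.05 and a member median of -0.39. Leaving out an array leaves 1 at that passage, which is then assumed to vary like the others.

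**Figure D1:**
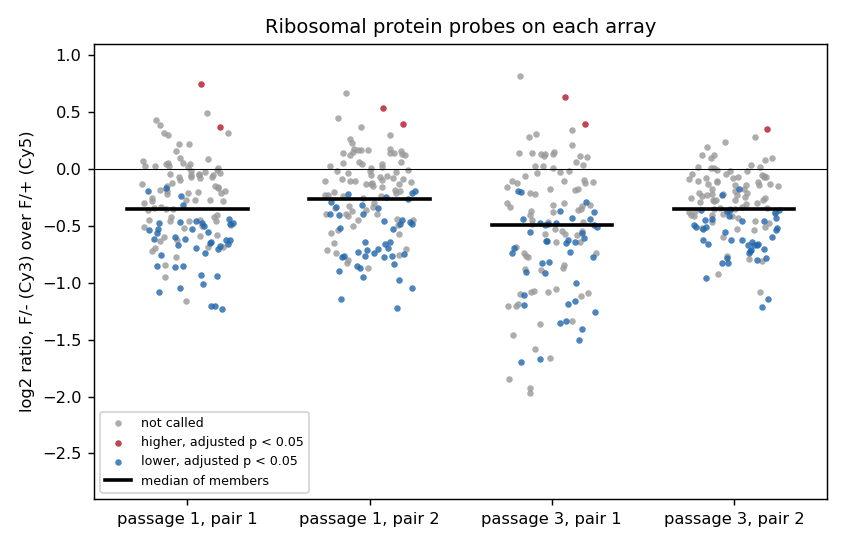
Log2 ratio of F/- (Cy3) over F/+ (Cy5) of each ribosomal protein probe on each of the 4 arrays; each point is a probe, coloured by its call over both passages, and black bars are the medians of the members. The medians lie between -0.50 and -0.26, and the late array of pair 1 has the longest lower tail.

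The normalization moved the size of the difference. With each array centred on its median in place of the loess curve, 91 members were called lower and none higher, with a median of -0.97, where 11.2% of all probes were called and their median was -0.05. The 2 probes called higher no longer passed. The scanner software's own ratios and the authors' value table each gave 9 members lower and a median of -0.28, where 5.44% and 5.11% of all probes were called and their median was -0.03. A loess curve drawn without the ribosomal protein spots gave 43 lower and 2 higher, with 8.93% of all probes called; the corresponding share with all spots was 8.84%.

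Ribosomal protein probes are among the brightest of the array, and brightness moved with the ratio. Of the 130 members, 74 lay in the brightest 1% of kept probes (356 probes). Within that 1%, 37 of 73 tested members were called lower, with a median of -0.51. Outside it, 5 of 56 were lower and 2 higher, with a median of -0.19. The other probes of the brightest 1%, leaving out those described as similar to a ribosomal protein, were called lower in 44 of 265 cases (16.6%) and had a median of -0.16. At a mean log2 intensity over 16, a limit chosen after the values were seen, 31 of 52 members were lower with a median of -0.61. There 30 of 107 probes of other genes (28.0%) were lower, with a median of -0.23. The part of brightness in the genotype ratio was not tested.

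**Figure D2:**
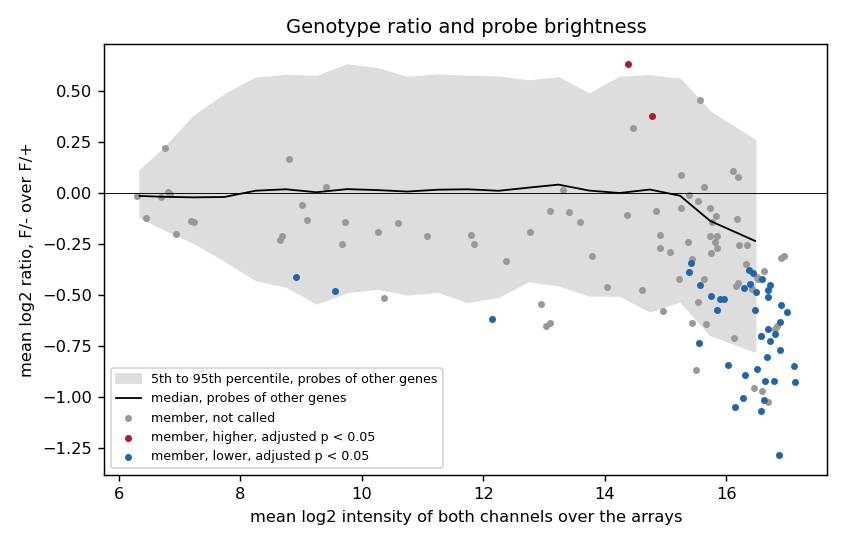
Mean log2 ratio of F/- over F/+ against the mean log2 intensity of both channels; points are ribosomal protein probes, the black line is the median and the grey band the 5th to 95th percentile of probes of other genes in intensity bins. Members cluster at the bright end, where the median of other genes also falls below 0, to -0.23 in the last bin.

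In the large subunit 23 of 69 probes were lower and 2 higher, with a median of -0.33. Rpl37a, a zinc-binding protein of this subunit, had the lowest ratio of all members, with -1.21 and -1.22 early and -1.51 and -1.22 late. Its mean was -1.29 ± 0.15 (SD, n = 4 arrays; limma adjusted p = 0.0257), and all arrays lay past a 2-fold difference. Rpl38, a protein known from the patterning of the mouse skeleton, read -1.08, -1.14, -1.11 and -0.95, with a mean of -1.07 ± 0.08 (adjusted p = 0.0257). These were the 2 lowest of the subunit, with little spread.

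Rpl12, at the base of the stalk, read -1.05, -0.95, -0.91 and -0.79 (mean -0.92, adjusted p = 0.0257). Rpl5 and Rpl11, which bind 5S ribosomal RNA and, when free, the p53 regulator Mdm2, had brightest probes at -0.69 ± 0.10 (adjusted p = 0.0257) and -0.57 ± 0.18 (adjusted p = 0.0330). Rpl5 read -0.61, -0.71, -0.82 and -0.63. The Rpl11 probe read -0.66, -0.46, -0.78 and -0.39. Both genes were negative on every array with these probes. A second, dimmer Rpl11 probe read -0.46, 0.23, -0.22 and -0.11 and did not pass (adjusted p = 0.508). Rpl13a, which is also part of the GAIT complex, read -0.51, -0.71, -1.85 and -0.40 and did not pass (adjusted p = 0.0913). Its late array of pair 1 stood far below the other 3. Rpl10a read 0.03, -0.02, 0.14 and -0.51 (adjusted p = 0.669), with both signs.

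Only Rpl4 and Rpl7 had a probe called higher. The Rpl4 probe read 0.37, 0.40, 0.39 and 0.36, a mean of 0.38 ± 0.02 (adjusted p = 0.0288). One Rpl7 probe read 0.75 and 0.53 early and 0.63 on the late pair 1 array, and had no value on the other (mean 0.64, adjusted p = 0.0378). The other 2 probes of Rpl7, described below, differ from it.

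In the small subunit 19 of 56 probes were lower and 0 were higher, and 55 were tested, with a median of -0.45; 37 had an unadjusted p under 0.05. Rps7, whose protein also binds Mdm2, read -0.86, -0.86, -1.67 and -0.82 (mean -1.05 ± 0.41, adjusted p = 0.0296). Rps13 read -0.94, -0.98, -1.41 and -0.71 with its brighter probe (mean -1.01 ± 0.29, adjusted p = 0.0269). Rps18 read -0.85, -0.90, -1.70 and -0.62 with its brightest probe (mean -1.02 ± 0.47, adjusted p = 0.0419). In all 3 the late array of pair 1 was the lowest.

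Rps3, a protein at the entry of the messenger channel, read -0.74, -0.69, -0.73 and -0.64 with its brighter probe (mean -0.70 ± 0.04, adjusted p = 0.0257). Its other probe read -0.34, -0.74, -1.19 and -0.29 and did not pass (mean -0.64 ± 0.42, adjusted p = 0.0805). Rps23, part of the decoding centre, read -0.93, -0.77, -1.34 and -0.67 (adjusted p = 0.0282). Rps27a, encoded as a fusion with ubiquitin, read -0.47, -0.20, -0.51 and -0.36, a mean of -0.39 (adjusted p = 0.0453). Bright probes of several members lay near 0, such as those of Rpl10 (means of -0.01 and -0.07). Rps6, the substrate of the S6 kinases, was another such member. Its brighter probe read -0.16, 0.16, 0.03 and 0.08 (adjusted p = 0.829), and a dim one 0.09, 0.17, 0.35 and 0.28 (adjusted p = 0.0698). The 2 probes of Rpsa, also known as the laminin receptor, had means of -0.04 and 0.03 (adjusted p = 0.853 and 0.770).

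The 3 stalk proteins split. Rplp1 read -1.16, -0.87, -1.66 and -0.41 (mean -1.02 ± 0.53, adjusted p = 0.0543), and Rplp2 read -0.69, -0.70, -1.09 and -0.13 (mean -0.65 ± 0.39, adjusted p = 0.0745). Rplp0, often used as a reference gene, read 0.43, 0.45, 0.82 and 0.13 (mean 0.46 ± 0.28, adjusted p = 0.0868). None of the 3 passed, although all had an unadjusted p under 0.05. The Rplp0 probe is spotted 10 times, and its spots had SDs of 0.01 to 0.05 within an array, so the spread between arrays is larger than that between spots. Median centring turned its mean to -0.15.

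Among the paralogs, Rps27l, a p53 target, had a mean of -0.42 ± 0.38 (adjusted p = 0.155) and was negative on 3 arrays. Rpl3l, the form of striated muscle, had a dim probe with a mean of -0.02 ± 0.10 (adjusted p = 0.873).

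Probes of the same gene often differed. Of 37 genes with 2 or more tested probes (88 probes), 30 had means of the same sign and 7 of opposite signs. The gap between the lowest and the highest probe had a median of 0.27 on the log2 scale, was over 0.5 in 9 genes and under 0.1 in 8. All probes were called in 2 genes, Rps12 and Rpl23a, some in 18 and none in 17. In 29 of the 37 genes the brightest probe was also the one with the lowest ratio.

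Rpl7 had the widest gap, 0.89. Besides the probe called higher, one read 0.01, -0.19, -0.33 and -0.51 (mean -0.25, adjusted p = 0.0847) and one 0.50, 0.14, 0.21 and -0.54 (mean 0.08, adjusted p = 0.766). Probes of Rps18 spanned -1.02 to -0.14, and those of Rps13 -1.01 to -0.13; in both the higher value came from a much dimmer probe. In Rpl7a both ends came from bright probes, with means of -0.77 ± 0.10 (adjusted p = 0.0257) and 0.11 ± 0.27 (adjusted p = 0.471). Rpl22 had -0.85 and, with a dimmer probe, -0.19. Rpl13 had -0.48 and -0.44 with bright probes and 0.17 with a dim one (adjusted p = 0.162). In Rps15a, Rps3a and Rpsa the positive values lay near 0 (0.004, 0.02 and 0.03) and came from the dimmer probe. Of the positive probes in the 7 genes with opposite signs, only 1, of Rpl7, was called. Taken over all their probes, these 7 genes give no single direction.

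**Figure D3:**
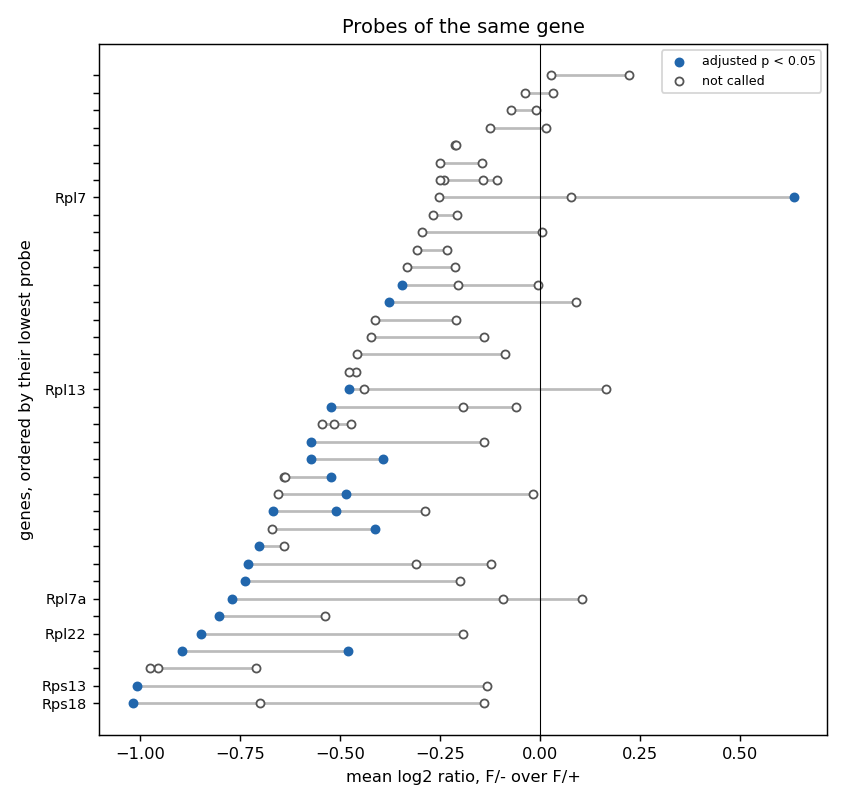
Mean log2 ratio of F/- over F/+ of each tested probe, for the 37 genes with 2 or more tested probes; a grey line joins the probes of a gene, filled points had an adjusted p under 0.05, and the 6 genes with the widest gap are named. Most lines lie left of 0, and the widest, Rpl7, runs from -0.25 to 0.64.

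The accession behind a probe also moved with the ratio. The 108 tested members with a RefSeq transcript accession had 38 lower and 2 higher, with a median of -0.42. The 21 with another accession, which were dimmer, had 4 lower and a median of -0.14. Another 64 probes were described on the array as similar to a ribosomal protein without carrying its name. Of these, 9 were lower (14.1%), with a median of -0.20. Processed copies of ribosomal protein genes are common in the mouse genome, and sharing of messages between probes was not tested.

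Taken by passage, the direction was the same and no member was called. At the early passage the median was -0.28, 107 of 129 members were negative, and limma called 0 members and 0.0% of all probes, with 54 members at an unadjusted p under 0.05. At the late passage the median was -0.42, 118 were negative, and limma called 0 members and 0.0% of all probes, with 80 members at an unadjusted p under 0.05. The smallest adjusted p of the whole table was 0.0701 early and 0.0790 late. On simulated data the early fit recovered 0% of log2 changes of 0.5 and 99% of those of 1. Rpl37a and Rpl38, at -1.21 and -1.11 early, were not called, so that simulation sets no exact limit. Uncalled members may still differ at a single passage.

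The genotype ratio did not pass a test of change between passages. Late minus early had a member median of -0.11 and was negative for 97 of 129, and limma called 0 members and 0.0% of all probes, with 3 members (Rpl21, Rpl35a and Rps24) at an unadjusted p under 0.05. Without the late array of pair 1 the median was 0.00, and without the late array of pair 2 it was -0.18. One Rpl21 probe had the lowest difference, -0.82, and read 0.39 and 0.14 early and -0.88 and -0.23 late (adjusted p = 0.825). The other Rpl21 probe had a difference of -0.12. Rps21, Rpl24 and Rpl13a followed with -0.71, -0.56 and -0.51. Among the highest differences was that of a Rpl13 probe, 0.31 (adjusted p = 0.883).

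The late arrays disagreed for some members. In 9 of 128 members the ratio of pair 1 lay more than 1 log2 unit below that of pair 2 (7.03%, against 0.876% of all probes), and in 1, Rpl17, more than 1 above it. The 9 were the 3 probes of Rps28, 2 of Rps18, and 1 each of Rpl13a, Rplp1, Rps19 and Rps20. At the early passage there were 0 of 127 members in either direction. Of all 35505 probes measured on both early arrays, 195 lay below and 212 above these limits. Over the 126 members on all arrays, Pearson's correlation between arrays was 0.77 for the early arrays and 0.30 for the late arrays. Over all probes it was 0.58 and 0.55. These values describe probes that share the arrays and their brightness.

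From passage 1 to passage 3, 3 ribosomal protein probes passed the test in F/- and 2 in F/+. On simulated data the F/- fit recovered 0% of log2 changes of 1 and 89% of those of 2. That fit had no normalization between arrays, unlike the real one, in which changes of -1.20 in F/- and -0.97 in F/+ passed. The simulation therefore sets no exact limit, and uncalled members may still have changed. The change was taken from the separate channels, as log2 of late over early, and F/- and F/+ share the arrays. In F/-, 3 of 126 members fell, where 2.22% of all probes fell, and 0 rose, where 2.89% rose, by limma's separate-channel test, with 23 members at an unadjusted p under 0.05. In F/+, 2 of 126 fell, where 2.42% of all probes fell, and 0 rose, where 3.23% rose, with 12 at an unadjusted p under 0.05. These shares are near the background. The member median was -0.18 in F/- and -0.08 in F/+, against 0.01 and 0.02 for all probes, and 93 and 78 members were negative.

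The probes that fell were single probes of Rps21, Rpl35a and Rpl29. The Rpl35a probe, for a large-subunit protein, had log2 signals in F/- of 12.28 and 12.60 early and 10.63 and 11.26 late. In F/+ it had 12.44 and 12.54 early and 11.10 and 11.52 late. It fell by 1.49 in F/- (SE 0.23, adjusted p = 0.0153) and by 1.18 in F/+ (adjusted p = 0.0312), with no overlap between passages. Another bright Rpl35a probe differed by -0.21 in F/- (adjusted p = 0.552) and by 0.10 in F/+.

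The Rpl29 probe, for a large-subunit protein, had 12.18 and 12.45 early and 10.94 and 11.29 late in F/-, and 12.39 and 12.51 early and 11.49 and 11.47 late in F/+. It fell by 1.20 in F/- (adjusted p = 0.0217) and by 0.97 in F/+ (adjusted p = 0.0403). The other 3 Rpl29 probes had changes of -0.23, -0.47 and -0.32 in F/-. One Rps21 probe, for a small-subunit protein, had 10.79 and 11.20 early and 9.08 and 9.36 late in F/-. It fell by 1.78 in F/- (adjusted p = 0.0206) and had a change of -1.32 in F/+ (adjusted p = 0.0513). A second Rps21 probe had the lowest change of all members in F/-, -2.19 (adjusted p = 0.0581), and the third -0.61. The probes of these genes therefore differ in the size of the change, and those of Rpl35a also in its sign.

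Other low values that did not pass were those of a Rps19 probe, with -2.04 in F/- and -1.65 in F/+, and of Rps26, with -1.30 and -1.13. One Rpl21 probe, with -1.58 in F/- and -0.76 in F/+, did not pass either, and the other had 0.07 and 0.19. The highest in F/- were those of the dimmer probes of Rps20 (0.84, with 0.89 in F/+) and Rps12 (0.81, with 0.89), and of a dim Rps6 probe (0.74, with 0.56). None of these passed. The brighter probes of Rps20 and Rps12 changed by -0.08 and -0.04 in F/-, and by -0.11 and 0.08 in F/+. In F/+, a Rpl17 probe (0.60) and a Rpl7 probe (0.57) came next after the dimmer probes of Rps12 and Rps20. The pair number, taken to mark the same animals at both passages, was also fitted as a replicate block. With it, 10 members fell and 1 rose in F/-, where 11.1% of all probes were called, and 7 fell in F/+, where 11.6% were. With the early pair 1 array left out, limma called 0 members in F/- and in F/+, with 9 and 6 at an unadjusted p under 0.05, and with the early pair 2 array left out 0 and 0, with 7 and 4. Without the late array of pair 1, 10 fell and 3 rose in F/- (8.80% of all probes called), and 14 fell and 5 rose in F/+ (12.9%). Without the late array of pair 2, 12 fell in F/- (5.18%) and 2 in F/+ (3.83%).

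**Figure D4:**
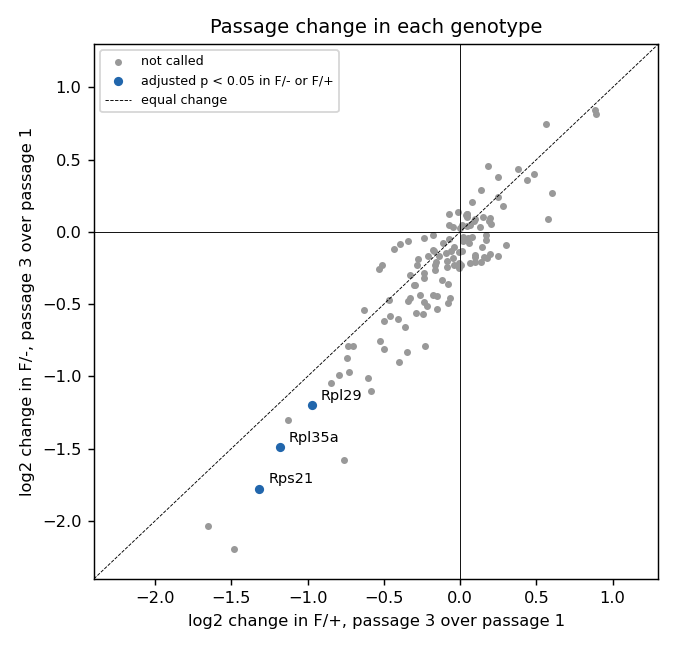
Log2 change from passage 1 to passage 3 in F/- (vertical) against F/+ (horizontal) for 126 ribosomal protein probes; blue points had an adjusted p under 0.05 in at least 1 genotype, and the dashed line marks equal change. Both axes share the arrays; the probes of Rps21, Rpl35a and Rpl29 lie at the lower left, at -1.78, -1.49 and -1.20 in F/-.

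Genes around the family were summarised from lists, by the genotype ratio over both passages, for which 2.99% of all probes were called lower and 5.85% higher. Mitochondrial ribosomal proteins, which serve the separate ribosome of that organelle, had 11 of 127 probes lower and 5 higher, with a median of -0.13. Mrps18c was the lowest (-0.64, adjusted p = 0.0387) and Mrpl38 the highest (0.49, adjusted p = 0.0424). Ribosomal proteins that the naming rule does not take had 1 of 11 lower and 1 higher, with a median of -0.46. Rack1, a scaffold on the small subunit, read -0.73, -0.82, -0.85 and -0.75 with one probe (mean -0.79, adjusted p = 0.0257), and another of its probes had a mean of 0.06 (adjusted p = 0.707).

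Ribosome biogenesis and RNA polymerase I genes had 7 of 95 probes lower and 6 higher, with a median of 0.04. The 2 highest, both probes of Ubtf, a transcription factor of ribosomal RNA genes, had 0.73 and 0.78 (adjusted p = 0.0257 each), and Nop16 had -0.56 (adjusted p = 0.0269). Translation factors and other TOP messages had 11 of 85 lower and 11 higher, with a median of 0.01, from Eif3e at -0.86 (adjusted p = 0.0366) to Eef2 at 1.25 (adjusted p = 0.0257). Genes that control ribosomal protein synthesis had 1 of 43 lower, Rps6kb1 at -0.61 (adjusted p = 0.0273), and 5 higher, with a median of 0.10. Among these, a probe of Rptor, the mTORC1 subunit, had 1.09 (adjusted p = 0.0257) and a Larp1 probe 0.68 (adjusted p = 0.0381). A probe of Mtor was the second lowest of the list, at -0.56, and did not pass (adjusted p = 0.0780). The 43 probes came from 16 genes, and agreement between probes of a gene was not examined here.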

How the data were processed

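The deposited scanner files hold raw intensity and local background per spot and a log10 ratio. The submitters' processing notes name Agilent Feature Extraction 9.1.3.1 for them. The authors' value table holds log10 ratios equal to that column with the sign turned, to Cy3 over Cy5. Here, normexp background correction (offset 50) of the raw intensity was followed by loess within arrays in limma 3.58.1 (R 4.3.3); values are log2 of F/- over F/+. Spots of a probe were averaged. A probe was kept if 1 or both channels stood well above background on 2 or more arrays, and tested if no more than 1 array was missing. Genotype was tested on all 4 arrays (2 residual degrees of freedom, 2.81 from the prior), and passage in limma's separate-channel fit after Aquantile (correlation 0.741 between channels of a spot, also used where an array was left out). Tests were two-sided, with Benjamini-Hochberg adjustment over all probes at 0.05. Pair numbers were taken to mark the same animals at both passages. Deviations of same-numbered arrays correlated at -0.00047, 1 value that both pairs share by construction, and this does not show the pairing. The mean over 4 arrays treats arrays of the same pair as independent. The p-values measure the spread between these arrays, whose number limits the precision.

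Members and gene lists were chosen with earlier results of these data known. Named are members called in any comparison (if over 12, the 6 lowest and 6 highest), the 6 lowest and 6 highest of each comparison, the 6 genes with the widest gap between probes, and genes of known roles; of the lists, the extremes. Other probes named, such as those of Rps28, were chosen after their values were seen. Tested on simulated data with 200 of 35464 probes changed, the fit for the genotype mean recovered 66.5% of log2 changes of 0.5 and all 200 of 1. The simulated noise took limma's moderated spread of each probe. Real probes with a wider spread can go uncalled, as did that of Rplp1 at -1.02. The F/- passage fit, simulated without normalization between arrays, recovered 0% of log2 changes of 1 and 89% of those of 2. Names follow a RefSeq table (GRCm38.p6): 109 member probes matched by accession and 21 by symbol; Rps3a in the file is Rps3a1 there. Alternatives covered background, normalization, filter, ratio source, pairing and left-out arrays. Figures used matplotlib 3.10.9. A named item that is withheld is not reported here.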

Additional observations from a re-analysis of the deposited data

Results flagged for a closer look

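For 1 named probe, of Rpl21, the genotype ratio was positive on both early arrays (0.39 and 0.14) and negative on both late arrays (-0.88 and -0.23), a late minus early log2 difference of -0.82. The signs were opposite on all arrays, and limma's test of the difference did not pass (adjusted p = 0.825). It was the only member with this pattern. The other Rpl21 probe read -0.35, -0.03, -0.21 and -0.40, a late minus early difference of -0.12. Groups of 2 arrays were too small to look for arrays that stand apart.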

How the results depend on the processing

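The number of members called over both passages was 44 and stayed within 1.5 times of it with normexp offset 0, no background subtraction, no dim filter, the replicate block (47), a loess curve without member spots and RefSeq-accession probes only (the last 2 chosen after seeing the data). It was 91 (median -0.97) with median centring, 9 with the scanner's ratios (median -0.28) and with the authors' table (median -0.28), 0 with pairs averaged, 7 (median -0.19) without members of the brightest 1% (chosen after seeing the data), and 0 to 62 with an array left out. Of the 44 calls, 42 were also called with median centring and 9 with the scanner's ratios.

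Early, normexp offset 0 called 2 members, where 0.194% of all probes were called. The early median was -0.84 with median centring, -0.21 with the scanner's ratios, -0.21 with the authors' table and -0.35 to -0.265 with an array left out; the late median was -1.03 with median centring. Late minus early ranged from -0.183 to 0.00166 with an array left out. In F/-, passage calls were 0 without normalization between arrays, 6 with normexp offset 0, 11 with the replicate block and 0 to 13 with an array left out. In F/+ they were 0 without normalization between arrays, 1 with median centring, 7 with the replicate block and 0 to 19 with an array left out. The F/+ median was -0.10 with median centring, -0.0790 without background subtraction, -0.14 without normalization between arrays (where all probes had -0.13), -0.0837 with normexp offset 0, -0.10 with quantile normalization and -0.123 to -0.0508 with an array left out. The block moved no other count of calls at the adjusted p by over 1.5 times; members at an unadjusted p under 0.05 went from 3 to 8 for late minus early, from 23 to 35 in F/- and from 12 to 27 in F/+.

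Means of named probes changed sign as follows. With median centring they were -0.14 for Rpl4, -0.59 for a Rpl7 probe other than that called higher (adjusted p = 0.0418), -0.56 for the Rpl7a probe with the highest ratio (adjusted p = 0.0408), -0.15 for Rplp0, -0.16 for Rps15, 0.12 for Rps19, -0.58 for Rps6 and -0.0847 for Rpsa. With the scanner's ratios and the authors' table alike they were 0.168 for Rps19, 0.0194 for Rps9 and 0.0872 for Rpsa, and Rps19 was 0.0291 without background subtraction. With an array left out, means ranged from -0.254 to 0.0760 for Rpl10a and from -0.311 to 0.0311 for the dimmer Rpl11 probe. The range was -0.446 to 0.167 for a Rpl17 probe and -0.306 to 0.0153 for the Rpl21 probe flagged above. It was -0.0601 to 0.0245 for Rpl3l and -0.109 to 0.263 for a Rpl7 probe that was not called. For the Rpl7a probe with the highest ratio it was -4.97e-05 to 0.213. It was -0.276 to 0.0127 for the dimmer Rps13 probe and -0.0501 to 0.109 for Rps6. Members called with all arrays kept their sign, where measured, whichever array was left out. The 2 Rpsa probes ranged from -0.181 to 0.106 and from -0.0164 to 0.0805. The causes were not tested. No slide block was run, as there was 1 slide.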
